A study of Danio rerio with 6 samples.

Results

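The miR-130, miR-301 and miR-454 miRNAs were examined in ZF4 cells, a fibroblast line established from zebrafish embryos, during cold acclimation. The members were taken by name: the 8 mature strands that carry the shared family seed (dre-miR-130a, dre-miR-130b, dre-miR-130c-3p, dre-miR-301a, dre-miR-301b-3p, dre-miR-301c-3p, dre-miR-454a and dre-miR-454b) and 1 partner strand, dre-miR-301b-5p. They make up 9 of the 414 miRNAs of the table, of which 349 are known and 65 are predicted. Small RNA was sequenced from 3 control libraries of cells grown at 28°C and from 3 libraries of cells kept at 18°C for 30 days, called cold acclimation. The abstract of the study gives 30 days for the control condition as well, while the titles of the control samples give no time. All libraries came from this 1 line in the same medium, with no genetic change, and the cells for cold acclimation were moved to the lower temperature the day after seeding. The series describes the libraries as biological replicates of this line, with no word on how the cultures were separated, so p-values measure only the spread between these samples.

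A mature miRNA is cut from 1 arm of a folded precursor, the hairpin, and guides Argonaute to messenger RNAs that pair with its seed, the bases near its 5′ end. Members of a seed family can therefore bind many of the same target sites. In this family the seed strand comes from the 3p arm, and the 5p arm gives a partner strand with another seed that is usually degraded. In human cells miR-130 represses PPARG, a transcription factor of fat cell differentiation, and miR-301a lies in an intron of SKA2, a gene of the spindle and kinetochore. The sequences of the strands are not shown, since the files used here hold names and levels only.

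Levels are given in TPM, the number of reads of a strand in every 1000000 miRNA reads of its library, with no length term. The libraries held 11748241 to 14960610 such reads, so 1 read was worth 0.0668 to 0.0851 TPM. The members were covered by 18 to 22173 reads each, and all 9 were detected in every library. Of 6 miRNAs listed as typical of fibroblasts, all were present, and dre-miR-21 took 379977 to 421105 TPM. The list was not used to name a cell type. Of these 6, 0 rose and 1 fell, beside 16.5% and 14.5% of all tested miRNAs. The strand dre-miR-199-3p fell by a log2 fold change of -1.04 (limma adjusted p = 0.00631), while dre-miR-214 did not pass (-1.58, 0.0122). The control means of dre-miR-199-5p, dre-miR-143 and dre-miR-145-5p were 1.76, 1.76 and 2.46 times the cold acclimation means, with overlap. Without dre-miR-21 the list summed to 6480 to 19453 TPM in the controls and to 6857 to 8199 TPM after cold acclimation. Each of these 5 miRNAs had its lowest control value in control replicate 3. The part of this list in the results of the family was not tested. Those typical of muscle, neurons, liver and blood reached at most 3.72 TPM, and dre-miR-1, the muscle miRNA, was at 0 in the 3 cold acclimation libraries. Control replicate 3 stood apart from the other controls. In it 17 miRNAs were over 1 log2 unit lower, against 0 in each other control, and dre-miR-143 was at 374 TPM against 4765 and 4665. The 7 miRNAs over 1 log2 unit higher there compared with 6 and 8 in control replicates 1 and 2. Relative to the other controls, the members lay between -0.66 and 0.02 in control replicate 3, with a median of -0.31 on the log2 scale. Cold acclimation replicate 3 was low for the members as well, with differences of -0.77 to -0.11 and a median of -0.48. The members were high in control replicate 2 and cold acclimation replicate 2, with a median of 0.33 in each. Many of the results below, though not all, are also given without control replicate 3 or without cold acclimation replicate 3. Bulk values of this kind cannot tell fewer cells that make a strand from less of it per cell.

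Of the 9 members, 2 rose in cold acclimated cells and 0 fell. A miRNA was said to rise or fall where limma on log2(TPM + 1) gave an adjusted p under 0.01 over the 310 miRNAs with a mean above 1.5 TPM, all 9 members among them. Over these 310 miRNAs, 16.5% rose and 14.5% fell, as 51 and 45 miRNAs. With the clean reads of each library as its size the same counts were 32 and 77. The median log2 fold change of all tested miRNAs was 0.02, and it was -0.23 with clean reads and -0.11 with totals that omit dre-let-7a and dre-miR-100-5p. The median of the members was -0.09, and 4 of the 9 were above 0. At an adjusted p under 0.05 (limma), 3 members were higher, dre-miR-301b-5p, dre-miR-130b and dre-miR-454b, and 3 were lower, dre-miR-130a, dre-miR-301b-3p and dre-miR-301c-3p, where 24.2% and 24.8% of all tested miRNAs were higher and lower. The counts of members were 3 and 3 at an unadjusted p under 0.05 too, beside 28.4% and 27.7% of all tested miRNAs. Between the conditions 6 members did not overlap, that is, all libraries of 1 condition lay above all of the other. This held for 58.1% of the tested miRNAs.

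**Figure D1:**
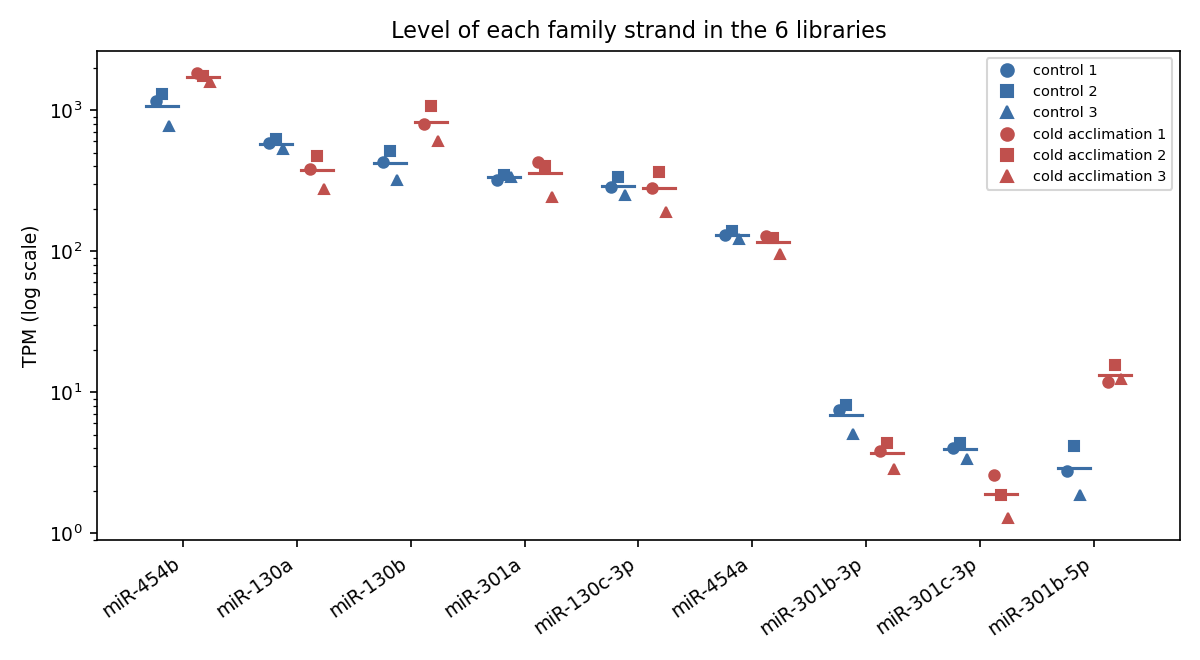
Level of each family strand in TPM on a log axis, with 1 symbol per library and a line at the mean of the 3 libraries of each condition. dre-miR-454b is the most abundant strand in both conditions, and dre-miR-301b-5p moves from the lowest mean in control cells, 2.92 TPM, to 13.2 TPM in cold acclimated cells.

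The largest change was in the partner strand dre-miR-301b-5p, which does not carry the family seed. It was at 2.74, 4.16 and 1.86 TPM in control replicates 1, 2 and 3 (41, 57 and 27 reads), and at 11.8, 15.5 and 12.5 TPM in cold acclimation replicates 1, 2 and 3 (142, 182 and 174 reads). Every cold acclimation library lay above every control library. The mean went from 2.92 ± 1.16 to 13.2 ± 1.98 TPM (SD, n = 3 each), a ratio of 4.53. Its log2 fold change was 1.89 (SE 0.25, limma adjusted p = 0.000322), which placed it at rank 23 by p among the 310 miRNAs. It was the only member that rose with a fold change above 2.5, the fold cutoff taken from the study, and 7.42% of the tested miRNAs did so. The rise held in 16 of the 16 alternative settings, with log2 fold changes of 1.21 to 2.20. These include the looser adjusted p under 0.05, which the rise could not fail. Without control replicate 3 the log2 fold change was 1.69 and without cold acclimation replicate 3 it was 1.93.

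Among the strands with the family seed, dre-miR-130b rose. In human liver cancer cells miR-130b is known to repress the p53-induced gene TP53INP1. Control replicates 1, 2 and 3 held 428, 516 and 318 TPM, and cold acclimation replicates 1, 2 and 3 held 800, 1065 and 607 TPM. The lowest cold acclimation library, replicate 3, lay above the highest control library. The control mean of 421 ± 99.3 TPM compared with a cold acclimation mean of 824 ± 229.8 TPM (SD, n = 3 each), 1.96 times higher. The log2 fold change was 0.96 (SE 0.24, limma adjusted p = 0.00937). This value lay close to the threshold, and the call held in 6 of the 16 alternatives, with adjusted p from 0.00349 to 0.0449. These 6 include the looser adjusted p under 0.05, which the call could not fail. It held without control replicate 3 (log2 fold change 0.77, adjusted p = 0.00395) and not without control replicate 1 (0.98, 0.0163) or without cold acclimation replicate 1 (0.96, 0.0365), 2 (0.75, 0.0405) or 3 (1.16, 0.0114), while the direction was the same in all 16.

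The most abundant member, dre-miR-454b, was at 1156, 1304 and 778 TPM in the control libraries and at 1836, 1744 and 1581 TPM in the cold acclimation libraries. All cold acclimation libraries lay above all control libraries, and control replicate 3 was the lowest. The mean went from 1079 ± 271 to 1720 ± 129 TPM (SD, n = 3 each), 1.59 times higher. The log2 fold change was 0.70 (SE 0.20, limma adjusted p = 0.0140), which did not pass the threshold. It passed in 3 of the 16 alternatives, with 0.86 (adjusted p = 0.0084) without control replicate 2, 0.48 (0.00677) without control replicate 3, and at the looser adjusted p under 0.05. Over all alternatives the adjusted p ran up to 0.139, the value with clean reads as library sizes. By level it stood at rank 40 to 55 among the known miRNAs in the control libraries and at rank 34 to 36 in the cold acclimation libraries.

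Of the strands with lower means in cold acclimated cells, dre-miR-130a was the most abundant. It was at 581, 630 and 527 TPM in the control libraries and at 384, 473 and 277 TPM in the cold acclimation libraries, so that the conditions did not overlap. The control mean of 579 ± 51.4 TPM was 1.53 times the cold acclimation mean of 378 ± 98.1 TPM (SD, n = 3 each). Its log2 fold change was -0.64 (SE 0.21, limma adjusted p = 0.0258). Without control replicate 3 the adjusted p was 0.00589 (log2 fold change -0.71), and without cold acclimation replicate 3 it was 0.0682 (-0.44). The limma adjusted p was highest without control replicate 2, at 0.0764 (-0.58). The change passed in 4 of the 16 alternatives, the looser adjusted p under 0.05 among them.

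The other lower strands, dre-miR-301b-3p and dre-miR-301c-3p, were near the bottom of the family. The strand dre-miR-301b-3p was at 7.49, 8.10 and 5.03 TPM in the control libraries (112, 111 and 73 reads) and at 3.81, 4.34 and 2.86 TPM in the cold acclimation libraries (46, 51 and 40 reads). Every control library was above every cold acclimation library, with a log2 fold change of -0.74 (SE 0.24, limma adjusted p = 0.0245). The strand dre-miR-301c-3p was at 4.01, 4.38 and 3.38 TPM (60, 60 and 49 reads) and then at 2.57, 1.87 and 1.29 TPM (31, 22 and 18 reads), again with no overlap. Its mean was 2.05 times higher in control cells, and its log2 fold change was -0.78 (SE 0.23, limma adjusted p = 0.0161). The log2(TPM + 1) scale understates changes at such levels. Both passed the threshold without control replicate 3, with adjusted p of 0.00398 and 0.00737 (log2 fold changes -0.92 and -0.86). Without cold acclimation replicate 3 the adjusted p values were 0.0725 and 0.0485 (-0.61 and -0.62). The limma adjusted p values were highest without control replicate 2, at 0.0973 and 0.0605 (-0.63 and -0.71). The changes passed in 4 and 5 of the 15 alternatives, the looser adjusted p under 0.05 among them. With median-of-ratios scaling or clean reads as library sizes, dre-miR-130a, dre-miR-301b-3p and dre-miR-301c-3p were all called lower. With totals that omit dre-let-7a and dre-miR-100-5p, only dre-miR-301c-3p was.

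The remaining strands, dre-miR-130c-3p, dre-miR-301a and dre-miR-454a, overlapped between the conditions. The strand dre-miR-130c-3p was at 283, 333 and 249 TPM in control libraries and at 281, 367 and 190 TPM in cold acclimation libraries, with a log2 fold change of -0.09 (SE 0.24, limma adjusted p = 0.817). It can come from either of 2 hairpins, dre-mir-130c-1 and dre-mir-130c-2, which give the same strand and cannot be told apart. For dre-miR-301a the values were 319, 346 and 338 TPM and then 427, 405 and 243 TPM, a log2 fold change of 0.06 (SE 0.22, limma adjusted p = 0.883). Its controls lay close together while cold acclimation replicate 3 was well below the other cold acclimation libraries. The sign was negative under each other scaling, -0.03 with median-of-ratios, -0.24 with clean reads and -0.09 with totals that omit dre-let-7a and dre-miR-100-5p, and the sign of dre-miR-130c-3p was positive without cold acclimation replicate 3 (0.16). The strand dre-miR-454a was at 131, 138 and 121 TPM and then at 129, 125 and 95.3 TPM, with a log2 fold change of -0.17 (SE 0.19, limma adjusted p = 0.478). A p that misses the threshold does not show that these strands stayed the same.

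**Figure D2:**
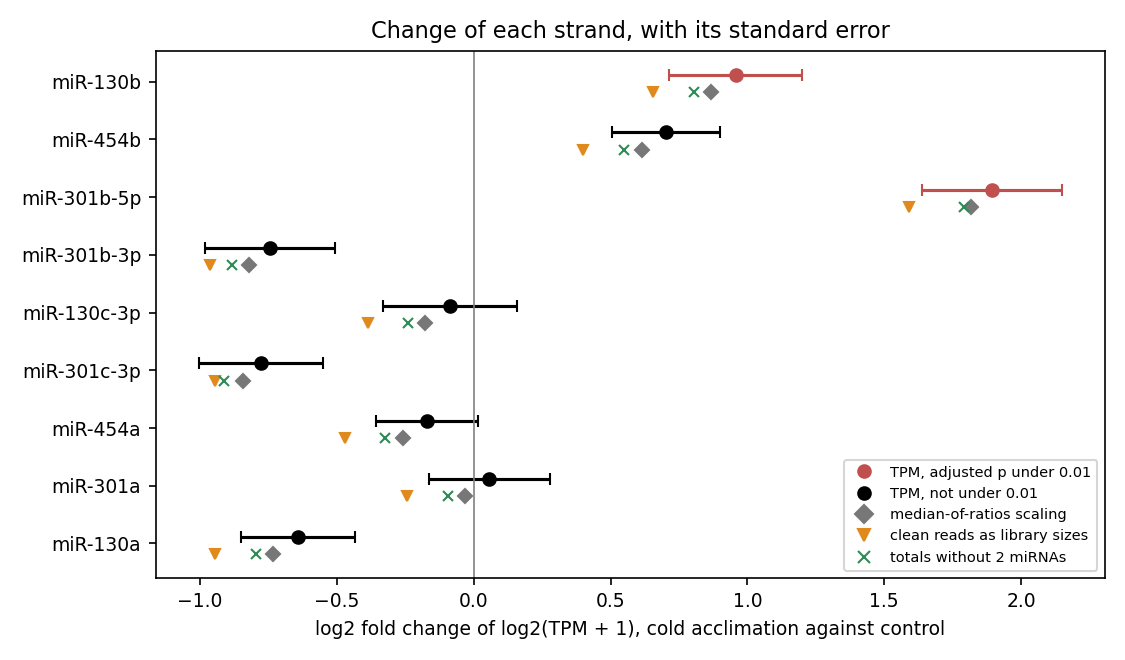
Log2 fold change of each strand on log2(TPM + 1), cold acclimation against control, with the standard error from limma (circles and bars) and the change under each other scaling (smaller symbols without bars). The circles run from -0.78 for dre-miR-301c-3p to 1.89 for dre-miR-301b-5p, and the other scalings lie to the left of the circle for every strand.

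In control cells the order of the mean levels was dre-miR-454b, dre-miR-130a, dre-miR-130b, dre-miR-301a, dre-miR-130c-3p, dre-miR-454a, dre-miR-301b-3p, dre-miR-301c-3p and dre-miR-301b-5p. The ranges of neighbours overlapped between dre-miR-130b and dre-miR-301a, between dre-miR-301a and dre-miR-130c-3p, and between dre-miR-301c-3p and dre-miR-301b-5p. In cold acclimated cells dre-miR-130b stood above dre-miR-130a with no overlap, and dre-miR-301b-5p stood above dre-miR-301b-3p and dre-miR-301c-3p. There dre-miR-130a, dre-miR-301a and dre-miR-130c-3p overlapped in this order.

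Summed over the 8 strands with the family seed, the level was 2910, 3280 and 2339 TPM in the controls and 3863, 4185 and 2999 TPM after cold acclimation. Cold acclimation replicate 3 lay below control replicate 2, so the sums overlapped. The control mean was 2843 ± 474 TPM and the cold acclimation mean 3682 ± 614 TPM (SD, n = 3 each), a log2 ratio of 0.37. The ratio was 0.25 without control replicate 3 and 0.50 without cold acclimation replicate 3. It was 0.27 with median-of-ratios scaling, where the sums did not overlap, and 0.22 with totals that omit dre-let-7a and dre-miR-100-5p, where they did. With clean reads as library sizes it was 0.058, also with overlap, so the difference depends on the scaling. The sum took 0.234 to 0.328% of the miRNA reads in control libraries and 0.300 to 0.418% in cold acclimation libraries.

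The share of each strand in that sum does not depend on the library size, and shares are given as a description. The share of dre-miR-454b averaged 37.6 ± 3.75% at 28°C and 47.3 ± 5.53% after cold acclimation (SD, n = 3 each). That of dre-miR-130b was 14.7 ± 1.07% and then 22.1 ± 2.88%. That of dre-miR-130a was 20.6 ± 1.75% and then 10.2 ± 1.05%, so that dre-miR-130a and dre-miR-130b exchanged places. The shares of dre-miR-301a overlapped between the conditions, with 11.98 ± 2.14% and 9.61 ± 1.47%. The means of the smaller strands were lower: dre-miR-130c-3p went from 10.2 to 7.46%, dre-miR-454a from 4.63 to 3.16%, dre-miR-301b-3p from 0.240 to 0.0993% and dre-miR-301c-3p from 0.139 to 0.0514%. The shares of 1 library add up to a whole, so a higher share of 1 strand lowers the others.

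**Figure D3:**
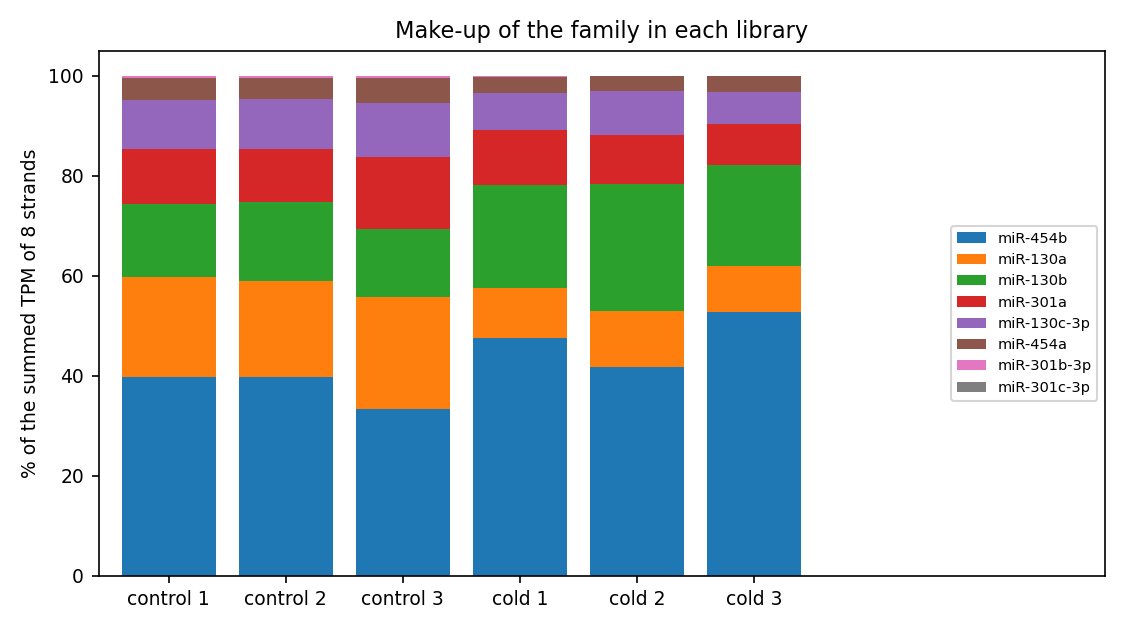
Share of each strand in the summed TPM of the 8 strands with the family seed, as stacked bars in % for each of the 6 libraries. dre-miR-130a takes 19.2 to 22.5% in the control libraries and 9.25 to 11.3% in the cold acclimation libraries, while dre-miR-130b takes 13.6 to 15.7% and then 20.3 to 25.4%.

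Ratios between pairs of strands were compared next, since a ratio within a library is free of the library size. The log2 ratios of pairs, here and below, were taken after 1 TPM was added to each strand. For pairs with the low strands dre-miR-301b-3p or dre-miR-301c-3p they therefore still depend somewhat on the scale, and the changes of these strands are understated. The ratio of dre-miR-130b to dre-miR-130a was 0.737, 0.820 and 0.604 in the controls and 2.08, 2.25 and 2.19 after cold acclimation. The 3 cold acclimation ratios lay close together and far above the control ratios, and the log2 ratio of dre-miR-130a to dre-miR-130b differed by -1.60. The ratio of dre-miR-454b to dre-miR-454a was 8.83, 9.44 and 6.42 and then 14.3, 13.99 and 16.6, also with no overlap. In contrast, dre-miR-130b to dre-miR-454b gave 0.371, 0.396 and 0.409 in control libraries and 0.436, 0.611 and 0.384 in cold acclimation libraries, where replicate 3 fell within the control range.

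Over the 28 pairs of seed strands, the ratios of 21 did not overlap between the conditions, or 75.0%, against 60.7% of the 47895 pairs of tested miRNAs. Each of these 21 pairs had p = 0.1 in an exact two-sided permutation test, the smallest that 3 against 3 libraries allow, and 0.133 after Benjamini-Hochberg adjustment over the 28 pairs, so none passed a threshold of 0.05. In 8 pairs the log2 ratio differed by more than 1, and each of these included dre-miR-130b or dre-miR-454b. After the values were seen, the 7 overlapping pairs were noticed to be those within 3 groups: dre-miR-130b with dre-miR-454b, dre-miR-130a with dre-miR-301b-3p and dre-miR-301c-3p, and dre-miR-130c-3p with dre-miR-301a and dre-miR-454a. Without control replicate 3, and likewise without cold acclimation replicate 3, 5 of these 7 pairs overlapped. The 21 other pairs cannot begin to overlap when a library is left out, so they were no test of the groups. With a pseudocount of 5, 17 of those 21 did not overlap.

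**Figure D4:**
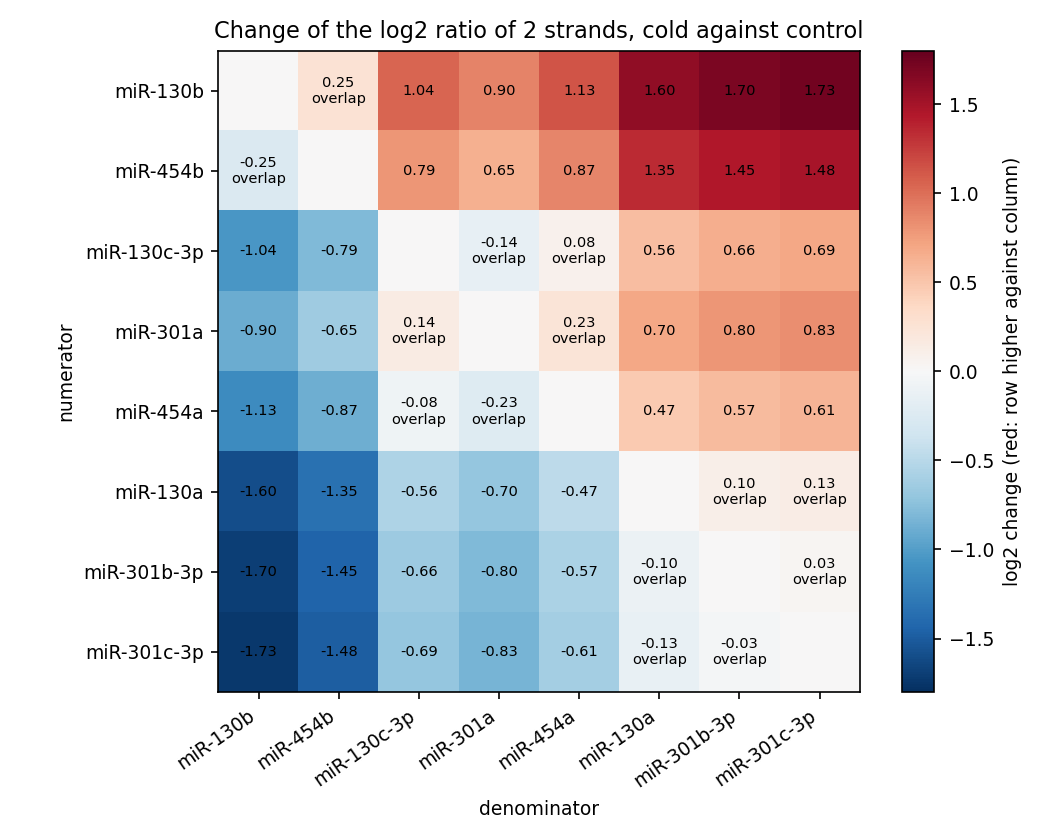
Difference of the log2 ratio of every pair of seed strands between cold acclimation and control, with 1 TPM added to each strand. The row is the numerator and the column the denominator, in red where the ratio was higher in cold acclimated cells. Cells marked overlap are the 7 pairs whose ratios overlap between the conditions, and the values reach 1.73 for dre-miR-130b to dre-miR-301c-3p.

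The balance between the arms of 1 hairpin was then examined for every hairpin whose 5p and 3p strands both had a mean above 1.5 TPM. limma was run on the log2 ratio of the 5p to the 3p strand, with 1 TPM added to each. Both strands of dre-miR-301b are members. The 5p strand made up 26.8% of both strands in control replicate 1 (95% Wilson interval 20.4 to 34.3%), 33.9% in replicate 2 (27.2 to 41.4%) and 27.0% in replicate 3 (19.3 to 36.4%). It made up 75.5% in cold acclimation replicate 1 (68.9 to 81.1%), 78.1% in replicate 2 (72.4 to 82.9%) and 81.3% in replicate 3 (75.6 to 86.0%). Every cold acclimation share was above every control share, and no interval of a cold acclimation library reached one of a control library. These intervals cover counting error only. The mean share was 29.2 ± 4.06% at 28°C and 78.3 ± 2.89% after cold acclimation (SD, n = 3 each), so the 3p strand held most of the reads in control cells and the 5p strand in cold acclimated cells.

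The log2 ratio of the dre-miR-301b strands differed by 2.64 (SE 0.17, limma adjusted p = 3.7e-05 over 54 hairpins). This was the largest difference and the smallest p of the 54 hairpins, of which 9, or 16.7%, passed an adjusted p under 0.01, 7 of them toward the 5p strand and 2 toward the 3p strand. The next largest difference was 1.58 in size, and the median size was 0.39. The value was 2.61 without control replicate 3 (adjusted p = 0.000182) and 2.54 without cold acclimation replicate 3 (0.000388), and with each library left out in turn it lay between 2.54 and 2.74. It was 3.08 with a pseudocount of 0.1 and 1.66 with a pseudocount of 5, so its size depends on the pseudocount. The sum of both strands averaged 9.79 ± 2.70 TPM at 28°C and 16.9 ± 2.54 TPM after cold acclimation (SD, n = 3 each; exact two-sided permutation test, p = 0.1, the smallest possible), with no overlap. In TPM the 5p strand was thus higher and the 3p strand lower, while their sum was higher. The lower level of the 3p strand did not pass the threshold (limma adjusted p = 0.0245), and the sum was not taken under other scalings.

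For the other hairpins of the family with a partner strand in the table, the 5p strand was in the minority. The strand dre-miR-301c-5p was represented by 4, 7 and 2 reads in the control libraries and by 7, 14 and 10 reads in the cold acclimation libraries, below the level filter. It made up 6.25, 10.4 and 3.92% of both strands in control libraries, with Wilson intervals from 1.08 to 20.03%. In the cold acclimation libraries it made up 18.4, 38.9 and 35.7%, with intervals from 9.22 to 55.1%. The shares did not overlap (6.87 ± 3.31% and 31.0 ± 11.0%, SD, n = 3 each; exact two-sided permutation test, p = 0.1), but the interval of cold acclimation replicate 1 overlapped those of the controls. With no level filter the log2 ratio of dre-miR-301c differed by 1.26 (SE 0.23, limma adjusted p = 0.00683 over 103 hairpins, of which 14 were called), at rank 12 by p. Its 5p strand was at most 1.19 TPM, so the size of this value depends on the added 1 TPM. For dre-miR-130c the 5p share was 4.05, 5.42 and 4.91% in control libraries and 4.72, 4.80 and 7.14% in cold acclimation libraries. These shares overlapped, and the log2 ratio differed by 0.20 (SE 0.21, limma adjusted p = 0.465). The 3p strand of dre-miR-130c can come from dre-mir-130c-1 or dre-mir-130c-2, so these shares may not describe 1 hairpin. No partner strand of the other members was used here.

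**Figure D5:**
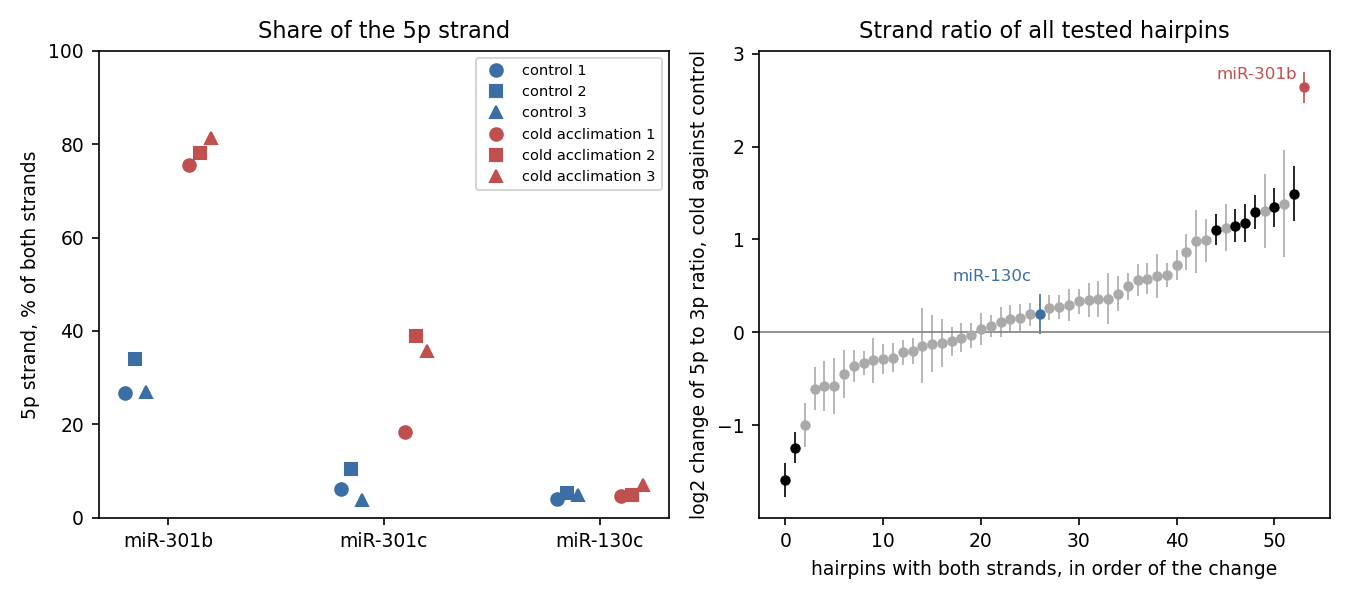
Left, share of the 5p strand in the reads of both strands, in %, for dre-miR-301b, dre-miR-301c and dre-miR-130c in each library. Right, log2 difference of the 5p to 3p ratio with its standard error for the 54 hairpins in order (black, adjusted p under 0.01; dre-miR-301b in red at 2.64, dre-miR-130c in blue at 0.20), where dre-miR-301b stands above the other hairpins.

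The hairpins of the family lie in 3 groups in the GRCz12tu assembly as annotated by RefSeq, in which all 9 hairpins were matched by name. This assembly is not the one the files were made with, so it was used only for neighbours. The first group holds mir130c-2, mir301b, mir454b and mir130b, each within 10 kb of another. The second holds mir130c-1 and mir301c. The third holds mir454a, mir301a and mir130a inside the span of ska2, a gene of the spindle and kinetochore, and of mdh2, the mitochondrial malate dehydrogenase. Within 10 kb of the hairpins, 0 miRNAs outside the family were annotated. Within 1 group the log2 fold changes of the seed strands were not all alike. In the first group dre-miR-130b rose and dre-miR-454b had a log2 fold change of 0.70, beside -0.74 for dre-miR-301b-3p. The changes of dre-miR-454b and dre-miR-301b-3p did not pass the threshold. The other strand of that hairpin, dre-miR-301b-5p, rose by 1.89. The log2 ratio of the sums of both strands was 0.79, which lay between 0.70 for dre-miR-454b and 0.96 for dre-miR-130b. In the third group dre-miR-130a was at -0.64, dre-miR-454a at -0.17 and dre-miR-301a at 0.06, and none of them passed. Ratios of dre-miR-130a to both of its neighbours did not overlap between the conditions, and neither did those of dre-miR-301b-3p to dre-miR-130b and dre-miR-454b. Each of these pairs had p = 0.1 in the exact two-sided permutation test, the smallest possible. The ratios of dre-miR-130b to dre-miR-454b and of dre-miR-301a to dre-miR-454a overlapped. Of all pairs of tested miRNAs, 60.7% did not overlap.

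The miRNAs nearest to the family in seed, which share part of it at an offset, are the miR-19 strands and miR-148 with miR-152. In mammals miR-19 belongs to the miR-17-92 cluster, and miR-148 with miR-152 represses the DNA methyltransferase DNMT1. Of the 6 tested, 0 rose and 3 fell, all of the latter miR-19 strands, beside 16.5% and 14.5% of all tested miRNAs. The median log2 fold change of the 6 was -0.63. The most abundant, dre-miR-19b-3p, averaged 1739 ± 297 TPM at 28°C and 815 ± 172 TPM after cold acclimation (SD, n = 3 each; log2 fold change -1.10, limma adjusted p = 0.00153). The level of dre-miR-19d-3p was 535 ± 70.4 TPM and then 337 ± 26.4 TPM (-0.66, 0.00909). That of dre-miR-19a-3p was 259 ± 52.4 and then 82.6 ± 35.8 TPM (-1.71, 0.00153). The strand dre-miR-148 did not pass, with 684 ± 82.7 and 585 ± 47.3 TPM (-0.22, 0.272), and neither did dre-miR-19c-3p (-0.61, 0.0544) or dre-miR-152 (0.06, 0.858). In the same libraries dre-miR-130b rose, and dre-miR-454b was higher without passing the threshold. Like the miR-19 strands, dre-miR-130a, dre-miR-301b-3p and dre-miR-301c-3p were lower, but they did not pass. The median log2 fold change of the 8 strands with the family seed was -0.13, and 3 of them were above 0.

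Among tested known miRNAs outside the family, those with the pattern most like dre-miR-130b over the 6 libraries were dre-miR-460-5p (Pearson r = 0.991) and dre-miR-365 (r = 0.990). They did not pass the threshold (log2 fold changes 0.55 and 0.73, limma adjusted p = 0.0679 and 0.0141). Most like dre-miR-301b-5p were dre-miR-193b-5p (r = 0.994) and dre-miR-27a-5p (r = 0.985). Both are 5p strands of hairpins that also give a 3p strand, and both rose, with log2 fold changes of 2.02 and 1.00 (limma adjusted p = 8.7e-05 and 0.000568). Strands picked for their likeness to dre-miR-301b-5p over these libraries were likely to move with it, so their rise is no separate result. These correlations are descriptions over 6 libraries in 2 conditions, and the points share the library sizes.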

How the data were processed

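The study made 50-bp single-end small RNA libraries of ZF4 cells, 3 of control and 3 of cold acclimation. Reads were trimmed and filtered by the authors and aligned with Bowtie2 2.3.0 to the mature miRNAs of miRBase, and miRCat was used to predict others. The deposited values are CPM, that is reads per 1000000 miRNA reads of each library, which the authors name TPM. The counting of reads with several matching miRNAs is not given in the sources read, and similar members may therefore share reads. Low values within a library step by the value of 1 read, and the reads given in the text are values divided by it. The tests were run on the normalized values as deposited, and no count test was run.

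limma 3.58.1 in R 4.3.3 (eBayes with a trend, no block) was applied to log2(TPM + 1) of miRNAs with a mean above 1.5 TPM (18 to 22 reads), with Benjamini-Hochberg adjustment over all of them. The log2 ratio of strands, log2(5p + 1) minus log2(3p + 1), was fitted by limma without the trend. It was fitted for hairpins whose strands both had a mean above 1.5 TPM, with Benjamini-Hochberg adjustment over these hairpins. For single ratios and sums, exact two-sided permutation tests were run in scipy 1.17.1 under Python 3.11.15, with a smallest possible p of 0.1. matplotlib 3.10.9 was used for the figures. The members and lists were chosen with earlier results of these data known. The text names every member, its partner strands and the 2 miRNAs most like each member that rose or fell. It also names dre-let-7a and dre-miR-100-5p for a scaling, the miRNAs listed as typical of fibroblasts, dre-miR-1, and the miRNAs with an offset seed. These last were listed by name. Alternatives were pseudocounts of 0.1 and 5, no filter and a mean above 7.5 TPM, 3 other scalings, known miRNAs alone, an adjusted p under 0.05, a replicate block and each library left out in turn. Gene names of neighbours came from RefSeq for GRCz12tu. No coordinates are given, because the submitters' processing notes name danRer10 (GRCz10).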

Additional observations from a re-analysis of the deposited data

How the results depend on the processing

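The rise of dre-miR-301b-5p and the strand ratio of dre-miR-301b kept their direction and their call under every alternative in which they were tested. The other calls lay near the threshold. The count of members that rose was 1 with a pseudocount of 0.1, no filter, a mean above 7.5 TPM, clean reads as library sizes, totals that omit dre-let-7a and dre-miR-100-5p, or known miRNAs alone, and 1 to 3 with each library left out. The count that fell was 3 with median-of-ratios scaling, clean reads or an adjusted p under 0.05, 1 with totals that omit those miRNAs, and 0 to 3 with each library left out. Over all tested miRNAs, 32 rose and 77 fell with clean reads, and 77 fell at an adjusted p under 0.05. With each library left out, 24 to 68 rose and 18 to 68 fell. In the fit of known miRNAs alone 27 fell, beside 28 of the known miRNAs in the main fit. The log2 fold change of dre-miR-130c-3p ran from -0.31 to 0.16 with each library left out and turned positive without control replicate 2 (0.02) and without cold acclimation replicate 3 (0.16). That of dre-miR-301a ran from -0.090 to 0.31 and turned negative without cold acclimation replicate 1 (-0.090) or 2 (-0.052), and also with median-of-ratios scaling (-0.032), clean reads (-0.24) and totals that omit those miRNAs (-0.095). Hairpins with a called strand ratio numbered 14 with no filter, 19 at an adjusted p under 0.05 and 1 to 12 with each library left out. The 1 came without cold acclimation replicate 2. Pairs of strands that did not overlap numbered 17 with a pseudocount of 5 and 21 to 23 with each library left out. Leaving out a library cannot lower this count. The log2 ratio of the family sum was 0.058 with clean reads and 0.25 to 0.50 with each library left out. The cause was not tested. At a mean above 7.5 TPM no value exists for dre-miR-301b-3p and dre-miR-301c-3p, which lie below it. The strand ratio of dre-miR-301b has therefore no value there either.

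The replicate numbers were checked as a block. Libraries with the same number deviated together with correlations of 0.015, 0.142 and 0.060. These were weak, but each library correlated best with its own number. Whether the numbers mark paired cultures or a shared batch is not given, and such correlations cannot decide it. With a block on these numbers the SE of every member was smaller, 0.14 against 0.24 for dre-miR-130b. With the replicate block, 39 miRNAs rose, 30 fell, 2 members rose and 0 fell, 13 hairpins were called, and the strand ratio of dre-miR-301b differed by 2.64 (limma adjusted p = 7.1e-05). The depth limits dre-miR-301c-5p most, at 2 to 14 reads per library.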
